A study of Homo sapiens with 7 samples.

Results

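The 10 genes described here encode microRNAs of blood cells or of leukemia: MIR223, MIR193A, MIR126, MIR9-1, MIR383, MIR221, MIR222, MIR146A, MIR181A1 and MIR24-1. They were chosen by name and are 10 of the 1594 microRNA hairpins that could be placed on the human genome (GRCh37, hg19). MIR223 and MIR193A are in the set because earlier work reported them as targets of AML1-ETO. The study profiled Kasumi-1, an established myeloblast cell line from peripheral blood that carries the t(8;21) translocation, by ChIP-seq, which recovers the DNA bound by a protein and sequences it. Cells in log-phase growth, with no treatment named in the labels, were used for each antibody, and the line was bought from ATCC. Libraries were made with an antibody to the C-terminal part of AML1, which does not recover the fusion protein, with an ETO antibody for AML1-ETO, and with antibodies to N-CoR, p300 and H3K4me3. For each antibody 2 biological replicates were pooled by the authors into a single list of peak summits, which holds 18087 positions for AML1-ETO, 11692 for AML1, 11020 for p300, 10004 for N-CoR and 19632 for H3K4me3. All libraries come from 1 cell line, and there is neither a spread between replicates nor a sample without AML1-ETO. The lists hold no expression values, so the cell type was not checked against marker genes, and read depth is not given in them. The study reports reads per library, with the most for N-CoR among these antibodies, and depth was not adjusted for here.

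A microRNA gene is transcribed as a long primary transcript whose hairpin is cut out and trimmed to a short mature RNA. Bases 2 to 8 of the mature RNA, the seed, pair with target messenger RNAs and lead to less protein. The start of the primary transcript can lie far from the hairpin, and regulatory proteins bind at this start or at enhancers along the locus. AML1 (RUNX1) is a DNA-binding activator of blood genes. AML1-ETO keeps its DNA-binding domain and joins it to ETO, which binds the co-repressor N-CoR. p300 is a histone acetyltransferase and co-activator, and H3K4me3 is a histone modification found at active or poised transcription starts.

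The mature strands of 9 members show which RNA each locus makes and which of them can share targets. Sequences are from RefSeq (human) and run 5′ to 3′, with the seed in capitals.
miR-223-3p: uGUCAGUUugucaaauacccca
miR-193a-3p: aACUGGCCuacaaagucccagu
miR-126-3p: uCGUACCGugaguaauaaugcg
miR-9-5p: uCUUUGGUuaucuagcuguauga
miR-221-3p: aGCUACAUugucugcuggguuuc
miR-222-3p: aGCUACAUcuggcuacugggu
miR-146a-5p: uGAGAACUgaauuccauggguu
miR-181a-5p: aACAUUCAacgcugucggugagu
miR-24-3p: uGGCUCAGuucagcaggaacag
The strands miR-221-3p and miR-222-3p hold the same seed and come from hairpins of 1 locus. The other strands shown have seeds of their own.

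MIR223 was the member with AML1, AML1-ETO, N-CoR and p300 summits near its hairpin. Within 5 kb, 1 of 10 members had an AML1 summit, 1 an AML1-ETO summit, 1 an N-CoR summit and 1 a p300 summit, and this was MIR223 in every case. Among all 1594 hairpins the shares at this distance were 14.8% for AML1-ETO, 11.2% for AML1, 15.1% for p300 and 9.79% for N-CoR, so a count of 1 in 10 is near the background in each list. An H3K4me3 summit lay within 5 kb of 3 members, MIR223, MIR193A and MIR126, beside 21.1% of all hairpins.

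Most binding at the members lay further out. Within 50 kb, 7 members had an AML1-ETO summit, 6 an AML1 summit, 7 an N-CoR summit, 7 a p300 summit and 8 an H3K4me3 summit. The shares of all hairpins with a summit at this distance were 51.9% for AML1-ETO, 43.2% for AML1, 45.4% for p300, 36.6% for N-CoR and 57.0% for H3K4me3. MIR221 and MIR222 lie in 1 locus and share their summits, so the 10 members make 9 loci. The distinct summits within 50 kb numbered 20 for AML1-ETO, 10 for AML1, 13 for p300, 16 for N-CoR and 20 for H3K4me3.

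**Figure D1:**
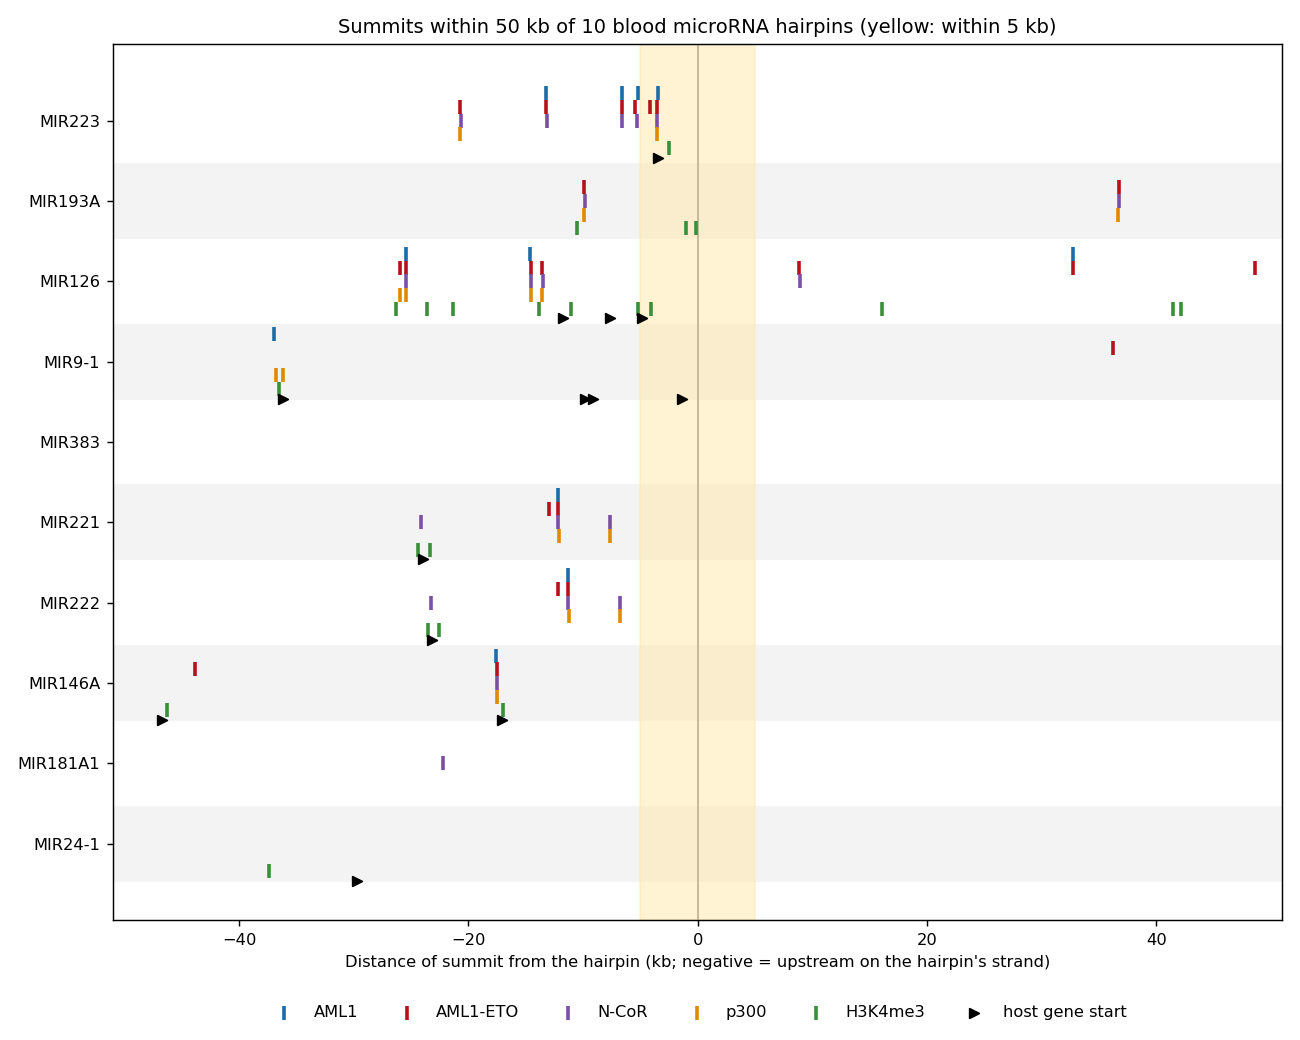
Positions of summits within 50 kb of the 10 hairpins. The x axis gives the distance from the hairpin in kb, negative upstream on its strand, each tick is 1 summit, colours mark the 5 lists, and black arrowheads mark annotated starts of transcripts that contain the hairpin. Summits of several lists stack at MIR223, MIR193A, MIR126, MIR9-1, MIR221, MIR222 and MIR146A, and MIR383 has none.

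MIR223 makes a microRNA that is abundant in granulocytes and limits myeloid proliferation and inflammation. Its hairpin lies on the plus strand at chrX:65238712-65238821, in an exon of the long noncoding RNA MIR223HG, which starts 3456 bp upstream. The locus held 6 AML1-ETO summits within 50 kb, 4 AML1, 5 N-CoR, 2 p300 and 1 H3K4me3 summit. The 6 AML1-ETO summits were all upstream of the hairpin, at 3529, 4144, 5497, 6577, 13226 and 20732 bp. All hairpins had a median of 1 AML1-ETO summit within 50 kb, and 87 of the 1594 had 6 or more.

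At the MIR223HG start the summits of 4 lists fell within 36 bp of each other. The AML1-ETO summit was 73 bp, the p300 summit 74 bp, the N-CoR summit 69 bp and the AML1 summit 38 bp upstream of the start. The H3K4me3 summit lay 935 bp downstream of it, inside the transcribed unit. It was 1008 bp from the AML1-ETO summit. The other AML1-ETO summits differed in what accompanied them. At 6577 bp upstream of the hairpin, AML1 was 9 bp and N-CoR 14 bp away, and the nearest p300 summit was 3047 bp away. At 13226 bp, AML1 was 2 bp and N-CoR 44 bp away, again with no p300 window overlapping. At 20732 bp, p300 was 13 bp away, N-CoR was 118 bp away and the nearest AML1 summit was 7508 bp away. The sites at 4144 and 5497 bp overlapped no window of AML1, N-CoR or p300. The nearest N-CoR summits to them were 619 and 244 bp away.

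The windows below are the deposited 100 bp intervals around AML1-ETO summits of MIR223, printed because they carry the site at the start and the sites that hold a Runx sequence. They are read from GRCh37 on the plus strand, and capitals mark TGTGGT (Runx), GAGGAA (PU.1), AGGAAG (ETS) or TTGCNNAA (C/EBP) on either strand.
At the MIR223HG start, chrX:65235133-65235232: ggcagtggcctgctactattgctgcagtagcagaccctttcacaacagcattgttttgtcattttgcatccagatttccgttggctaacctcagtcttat
At 4144 bp upstream, chrX:65234518-65234617: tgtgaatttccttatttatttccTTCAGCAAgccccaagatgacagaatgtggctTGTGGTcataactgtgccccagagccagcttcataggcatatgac
At 13226 bp upstream, chrX:65225436-65225535: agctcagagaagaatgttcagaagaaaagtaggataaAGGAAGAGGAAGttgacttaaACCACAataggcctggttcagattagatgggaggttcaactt
The AML1-ETO window at the start held none of the 4 sequences, although all 4 proteins had a summit there. The AML1 window, with its summit 35 bp away, held a PU.1 and an ETS sequence. The N-CoR and p300 windows there held none. The window at 4144 bp held a Runx and a C/EBP sequence but no summit of AML1, N-CoR or p300 overlapped it. The window at 13226 bp, where AML1 and N-CoR lay close by, held a Runx sequence beside overlapping PU.1 and ETS sequences.

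The AML1-ETO summits of MIR223 came from all along the deposited list, whose peaks are numbered in an order that is not stated and that is not the order along the chromosomes. The site at 6577 bp was number 856 and the site at the start number 2186 of 18087. The sites at 5497, 20732, 13226 and 4144 bp were numbers 6271, 7312, 15956 and 17813. At the start, N-CoR was number 627 of 10004, AML1 number 792 of 11692 and p300 number 1722 of 11020. No height or score is given with these numbers.

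MIR193A makes a microRNA that represses growth and survival genes, among them the receptor KIT, in several tumors. Its hairpin lies on the plus strand at chr17:29887015-29887102, outside any annotated host transcript. H3K4me3 summits lay 152 and 996 bp upstream of the hairpin, and another at 10567 bp. No AML1 summit was found within 50 kb, the nearest being 66626 bp away. AML1-ETO had 2 summits, 1 at 9878 bp upstream and 1 at 36707 bp downstream, so none within 5 kb. Both overlapped p300 and N-CoR. At the upstream site p300 was 5 bp and N-CoR 74 bp from the AML1-ETO summit, and the H3K4me3 summit was 689 bp away. At the downstream site, in an intron of a long noncoding RNA, p300 and N-CoR were each 26 bp away and the nearest H3K4me3 summit 36946 bp away. The AML1-ETO peaks were numbers 5735 and 13189 of the list.

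The upstream AML1-ETO window of MIR193A is printed because it held none of the Runx, PU.1, ETS and C/EBP sequences and looks unlike the other windows. It is on the plus strand of GRCh37, and capitals mark GGTTCGAA on either strand in 2 overlapping copies.
At 9878 bp upstream, chr17:29877087-29877186: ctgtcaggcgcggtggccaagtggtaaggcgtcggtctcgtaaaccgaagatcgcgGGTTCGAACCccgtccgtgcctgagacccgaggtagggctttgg
GGTTCGAA is the core of the B box, the internal promoter element of transfer RNA genes, and was searched after this window had been read. It occurred in 7 of all 18087 AML1-ETO windows, or 0.0387%. The annotation used here lists no transfer RNA genes, so whether this stretch is one was not tested. The downstream AML1-ETO window also held none of the 4 sequences. The p300 window there, with its summit 26 bp away, held a PU.1 and an ETS sequence, and the N-CoR window a PU.1 sequence.

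MIR126 lies in an intron of EGFL7, which encodes a secreted factor of endothelial cells, and its microRNA is known in hematopoietic stem cells and in t(8;21) leukemia. The hairpin is on the plus strand at chr9:139565054-139565138. The locus was the richest of the members in AML1-ETO, with 7 summits within 50 kb, and 61 of the 1594 hairpins had 7 or more. It also held 3 AML1, 4 N-CoR, 4 p300 and 10 H3K4me3 summits, in a region with several other genes. Within 5 kb H3K4me3 alone had a summit, 4068 bp upstream.

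The AML1-ETO sites of MIR126 formed 2 upstream clusters and 3 single sites downstream. In the cluster nearer the gene, the summit 14510 bp upstream of the hairpin had N-CoR 32 bp, p300 36 bp and AML1 72 bp away. The summit at 13534 bp had N-CoR 7 bp and p300 8 bp away, with the nearest AML1 summit 1048 bp away. These sites lay 2764 and 1788 bp upstream of the EGFL7 start, and H3K4me3 summits were 647 and 329 bp away. In the further cluster, the summit at 25463 bp overlapped AML1, N-CoR and p300, which were 21, 32 and 65 bp away. The summit at 25945 bp overlapped p300, 52 bp away. Downstream, the nearest AML1-ETO summit to the hairpin lay at 8855 bp in an intron of AGPAT2, with N-CoR 78 bp away. The summit at 32750 bp had AML1 24 bp away, and the summit at 48599 bp in an intron of DIPK1B overlapped no other list.

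The windows of the nearer MIR126 cluster are printed since they hold the N-CoR and p300 sites closest to EGFL7. They are on the plus strand of GRCh37, with the sequences searched in capitals.
At 14510 bp upstream, chr9:139550494-139550593: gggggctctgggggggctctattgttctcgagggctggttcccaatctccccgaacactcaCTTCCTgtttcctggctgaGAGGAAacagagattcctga
At 13534 bp upstream, chr9:139551470-139551569: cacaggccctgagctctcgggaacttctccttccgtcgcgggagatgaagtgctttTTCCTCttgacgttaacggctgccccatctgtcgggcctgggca
The first window held an ETS and a PU.1 sequence and the second a PU.1 sequence. Neither held TGTGGT, although AML1 had a summit at the first.

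MIR221 and MIR222 make microRNAs that act on KIT and on the cell-cycle inhibitor p27. Their hairpins are on the minus strand at chrX:45605585-45605694 and chrX:45606421-45606530, in an intron of the long noncoding RNA MIR222HG. AML1-ETO had 2 summits at the locus, 12155 and 12986 bp upstream of MIR221, which is 11319 and 12150 bp upstream of MIR222. The nearer site had AML1 13 bp, N-CoR 15 bp and p300 55 bp away. The further site overlapped no other list, with N-CoR 816 bp away. A p300 and an N-CoR summit without AML1-ETO lay 7641 and 7625 bp upstream of MIR221. The MIR222HG start, 23983 bp upstream of MIR221, had an N-CoR summit 116 bp and an H3K4me3 summit 371 bp upstream of it. The nearest AML1-ETO summit was 10997 bp from that start.

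The window with all 4 proteins at MIR221 and MIR222 is printed on the plus strand of GRCh37, with the Runx sequence, here on the minus strand, in capitals.
At 12155 bp upstream of MIR221, chrX:45617799-45617898: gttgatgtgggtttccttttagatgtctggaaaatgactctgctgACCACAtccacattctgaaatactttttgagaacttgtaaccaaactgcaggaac
It was AML1-ETO peak number 5264 of the list and the single member window with AML1, N-CoR, p300 and a Runx sequence.

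MIR146A makes a microRNA that NF-kB induces and that dampens NF-kB signalling in immune cells. Its hairpin is on the plus strand at chr5:159912359-159912457, in an exon of the long noncoding RNA MIR3142HG. All 4 proteins had a summit at nearly the same place upstream of the hairpin, at 17546 bp for AML1, 17540 bp for N-CoR, 17533 bp for AML1-ETO and 17522 bp for p300. They spanned 24 bp and stood 449 bp upstream, by the AML1-ETO summit, of the MIR3142HG start that is 17084 bp from the hairpin. An H3K4me3 summit lay 71 bp downstream of this start. The peak numbers were 439 of 18087 for AML1-ETO, 490 of 11692 for AML1, 505 of 10004 for N-CoR and 1546 of 11020 for p300, all in the first 14.0% of their lists. A second AML1-ETO summit, number 10851, lay 43868 bp upstream of the hairpin with no other protein overlapping it. It was 2890 bp downstream of the other MIR3142HG start, which had an H3K4me3 summit at 467 bp.

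The window at the MIR3142HG start is printed because the AML1-ETO peak there has the lowest number among the members. It is on the plus strand of GRCh37, and capitals mark AGGAAG (ETS) and GGGANTTCC, which is a form of the NF-kB sequence and was searched after the window had been read.
At 17533 bp upstream of MIR146A, chr5:159894776-159894875: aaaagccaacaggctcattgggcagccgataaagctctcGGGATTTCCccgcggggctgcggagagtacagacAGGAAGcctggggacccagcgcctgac
GGGANTTCC was in 0.719% of all AML1-ETO windows and in 1 of the 20 near the members. The window held no TGTGGT.

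**Figure D2:**
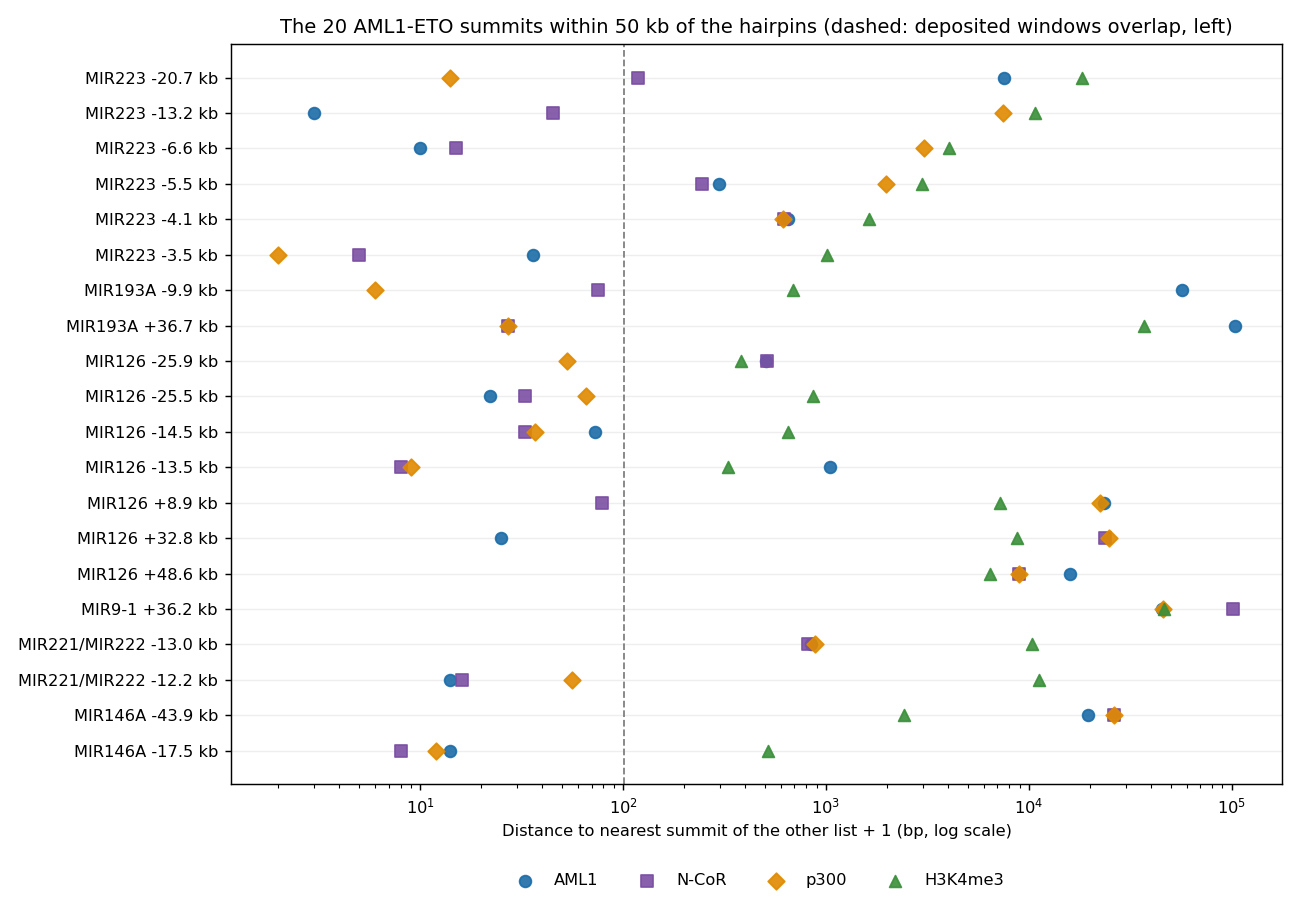
Distance from each of the 20 AML1-ETO summits within 50 kb of the members to the nearest summit of AML1, N-CoR, p300 and H3K4me3. The x axis is the distance plus 1 in bp on a log scale, each row is 1 AML1-ETO summit named by its member and its distance from the hairpin (from MIR221 for the shared locus), and points left of the dashed line have overlapping windows; 5 rows have AML1, N-CoR and p300 left of the line.

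Over the members together, N-CoR and p300 each accompanied about as many AML1-ETO summits as not. Windows reach 50 bp to either side of a summit and were counted here as overlapping when they shared at least 1 bp. Of the 20 AML1-ETO summits, 11 overlapped N-CoR (55.0%, exact Clopper-Pearson 95% interval 31.5 to 76.9), 10 overlapped p300 (50.0%, 27.2 to 72.8) and 8 overlapped AML1 (40.0%, 19.1 to 63.9). The shares of all 18087 AML1-ETO summits were 38.9% for N-CoR, 21.8% for p300 and 46.2% for AML1. The members' intervals included the background share for N-CoR and AML1, and they cover counting error only, over summits that cluster within loci. For p300 the interval was above the background share within 50 kb, but not without MIR126 or within 100 kb. Within 25 kb, 7 of 13 AML1-ETO summits overlapped p300, with no interval computed. MIR126 gave 7 of the 20 AML1-ETO summits and 4 of those with p300, and without it 6 of 13 overlapped p300 (46.2%, 19.2 to 74.9) and 7 of 13 N-CoR. Within 100 kb of the hairpins, 11 of 34 AML1-ETO summits overlapped p300 (32.4%, 17.4 to 50.5).

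Both N-CoR and p300 overlapped 8 of the 20 AML1-ETO summits (40.0%, 19.1 to 63.9), against 15.7% of all. Sites of MIR126 were among these 8, and this share was not computed without MIR126 or at other distances. AML1, N-CoR and p300 together overlapped 5 of 20 (95% interval 8.66 to 49.1%), against 11.8% of all, and these were at the MIR223HG start, at 2 sites of MIR126, at MIR221 and MIR222, and at MIR146A. Neither N-CoR nor p300 overlapped 7 (35.0%, 15.4 to 59.2), against 55.0% of all. An H3K4me3 summit lay within 1000 bp of 6 (30.0%, 11.9 to 54.3), against 27.4% of all. These were 4 sites of MIR126 and 1 site each of MIR193A and MIR146A, and the site at the MIR223HG start was just outside, at 1008 bp.

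Read from the other lists, AML1-ETO accompanied AML1 and N-CoR sites at the members about as often as it did all their sites. Of the AML1 summits within 50 kb, 8 of 10 overlapped AML1-ETO, beside 71.5% of all AML1 summits. For N-CoR it was 11 of 16, beside 70.3% of all, and for p300 10 of 13, beside 35.8% of all. All 4 p300 summits of MIR126 were among these 10, and neither an interval nor a count without MIR126 was computed. The 2 AML1 summits without AML1-ETO were at MIR9-1 and 5201 bp upstream of MIR223, the latter 296 bp from an AML1-ETO summit.

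The sequences under the 20 AML1-ETO summits were mixed. TGTGGT (Runx) was in 4 of 20 windows, where 31.3% of all AML1-ETO windows held it. GAGGAA (PU.1) was in 7 of 20, beside 26.0% of all, and AGGAAG (ETS), which can overlap it, in 6 of 20, beside 37.5% of all. TTGCNNAA (C/EBP) was in 4 of 20, beside 8.75% of all. The C/EBP sequences were 4144 and 20732 bp upstream of MIR223, 8855 bp downstream of MIR126 and 43868 bp upstream of MIR146A. C/EBP factors drive granulocyte genes. These letters are a description of the windows, and no binding of PU.1, ETS or C/EBP factors was measured here.

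MIR9-1 makes a microRNA best known in the nervous system and also reported in myeloid leukemia. Its hairpin is on the minus strand of chromosome 1 from 156390133 to 156390221, in an intron of MIR9-1HG. Among MIR9-1HG transcripts that contain the hairpin, the furthest start was 36184 bp upstream. An AML1 summit lay 757 bp, a p300 summit 16 bp and an H3K4me3 summit 356 bp upstream of this start. Other MIR9-1HG transcripts start slightly further out, and the AML1 summit was 607 bp upstream of the nearest of these. A second p300 summit was 145 bp from the AML1 summit. This AML1 peak was number 497 of 11692. Neither AML1-ETO nor N-CoR had a summit there, and the nearest were 42324 and 44913 bp from the start. The hairpin's nearest AML1-ETO summit was 36188 bp downstream, in an intron of RHBG, with a Runx sequence in its window and no other list overlapping.

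MIR181A1 and MIR24-1 had no AML1, AML1-ETO or p300 summit within 50 kb. MIR181A1, whose microRNA tunes lymphocyte signalling, lies on the minus strand of chromosome 1 from 198828173 to 198828282 in an intron of MIR181A1HG. Its one summit was of N-CoR, 22231 bp upstream, and the nearest AML1-ETO summit was 82198 bp away. The MIR181A1HG start, 78268 bp upstream, had H3K4me3 at 146 bp. MIR24-1 lies on the plus strand of chromosome 9 from 97848303 to 97848370 within AOPEP, a peptidase gene, and its one summit was of H3K4me3, 37345 bp upstream and 92 bp from an AOPEP start. The nearest AML1-ETO summit was 103887 bp from the hairpin. At the first AOPEP start, 359322 bp upstream of MIR24-1, AML1 was 17 bp, AML1-ETO 42 bp and H3K4me3 284 bp away.

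MIR383, a microRNA gene in an intron of the sarcoglycan gene SGCZ, had no summit of any list within 50 kb. It lies on the minus strand of chromosome 8 from 14710947 to 14711019. The nearest summits were 146062 bp away for AML1-ETO, 576062 bp for N-CoR and further for the others, at 1719725 bp for H3K4me3, 2099253 bp for p300 and 2121340 bp for AML1. The SGCZ start furthest from it, at 384921 bp, had its nearest H3K4me3 summit 1917577 bp away.

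**Figure D3:**
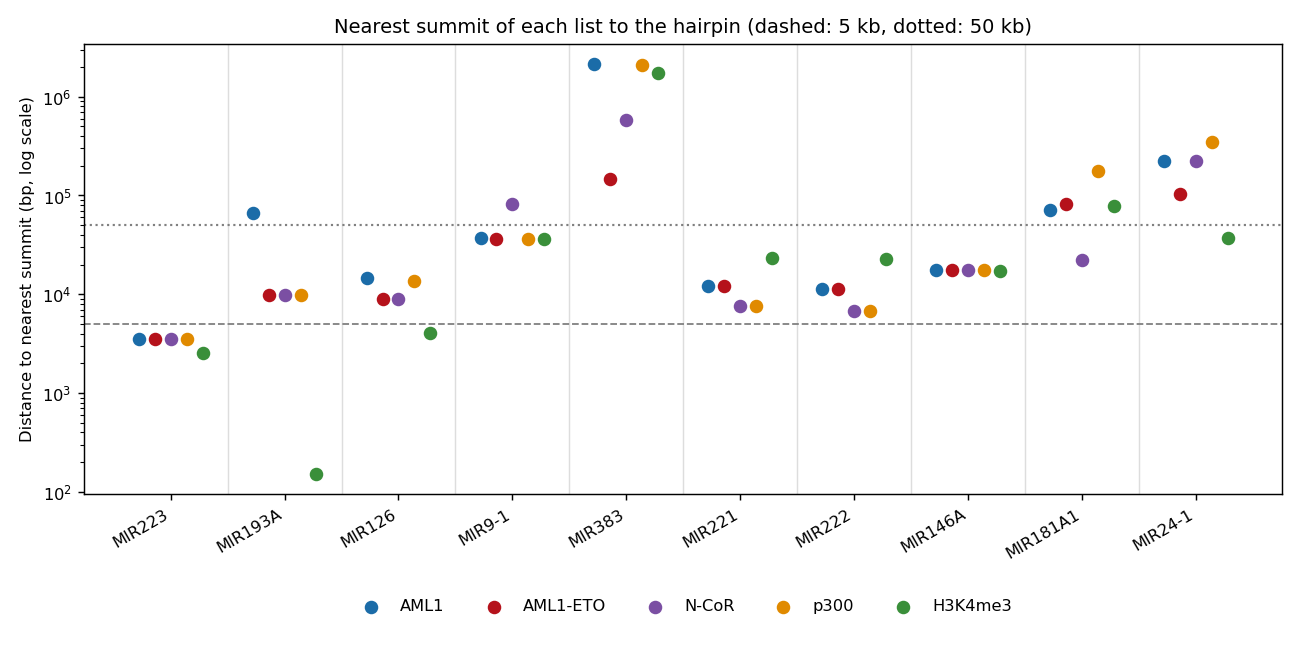
Distance from each hairpin to the nearest summit of each list, in bp on a log scale, with 5 kb dashed and 50 kb dotted. Points are single distances without error. All 5 points of MIR223 lie under 5 kb, all 5 of MIR146A lie near 17 kb, and all 5 of MIR383 lie above 50 kb.

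The annotated starts of the host genes separated the members further, and which of these starts makes each microRNA was not tested. The 10 members had 8 host genes, and MIR193A had none. A summit within 1000 bp of an annotated start was found for 7 of 8 host genes with H3K4me3, 4 with AML1, 3 with AML1-ETO, 3 with N-CoR and 3 with p300. Among all 1028 host genes of microRNAs the shares were 67.8% for H3K4me3, 38.5% for p300, 26.1% for AML1-ETO, 19.8% for AML1 and 15.4% for N-CoR. MIR223HG and MIR3142HG had all 5. MIR9-1HG had AML1 and p300 with H3K4me3 but not AML1-ETO or N-CoR, MIR222HG had N-CoR and H3K4me3, and AOPEP had AML1, AML1-ETO and H3K4me3. For AOPEP, AML1 and AML1-ETO were only at the start 359322 bp from MIR24-1. EGFL7 and MIR181A1HG had H3K4me3 alone, and SGCZ had none.

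**Figure D4:**
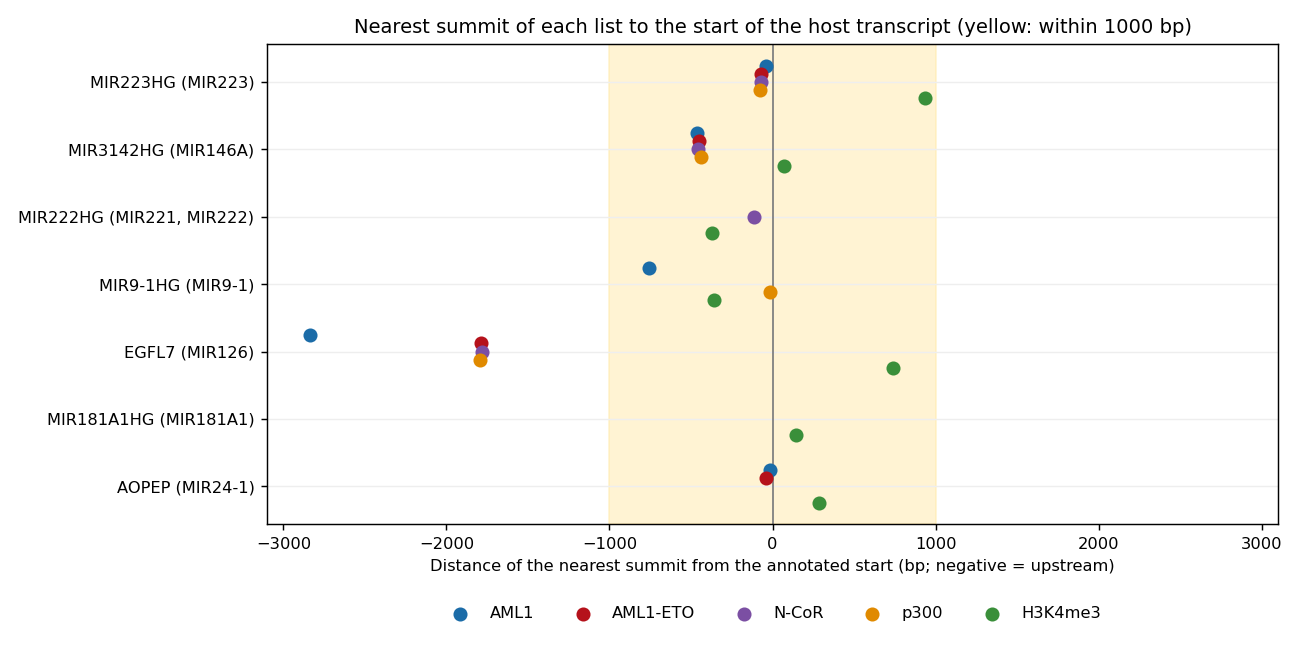
Offset in bp of the nearest summit of each list from the start of 7 host transcripts, for the start furthest from the hairpin (for MIR3142HG the nearer one); negative is upstream, and summits beyond 3000 bp are not drawn. AML1, AML1-ETO, N-CoR and p300 coincide upstream of MIR223HG and MIR3142HG, and N-CoR without AML1-ETO is seen at MIR222HG.

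Several mature microRNAs are made from more than one locus, and the copies differed in binding. The mature miR-24-3p is in both MIR24-1 and MIR24-2. MIR24-1 had no AML1-ETO summit within 50 kb, while MIR24-2 had 11, the nearest 369 bp from the hairpin, and 8 AML1, 8 N-CoR and 9 p300 summits. The mature miR-9-5p is in MIR9-1, MIR9-2 and MIR9-3, with 1, 2 and 7 AML1-ETO summits within 50 kb. At MIR9-3 the nearest AML1-ETO summit was 2149 bp from the hairpin and the nearest N-CoR summit 2181 bp. The mature miR-181a-5p is in MIR181A1 and MIR181A2, with 0 and 1 AML1-ETO summits. Of 7 copies and relatives of the members, 3 had AML1-ETO within 5 kb and 6 within 50 kb, beside 14.8% and 51.9% of all hairpins. Among them MIR24-2 and MIR181C lie near each other on chromosome 19. Their 50 kb ranges overlap and share summits, so their counts are not separate.

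Relatives with another mature sequence also differed from the members. MIR146B had 5 AML1-ETO summits within 50 kb, the nearest at 900 bp, against 2 for MIR146A. MIR193B had none, its nearest being 326160 bp away, and its nearest H3K4me3 summit lay at 1084 bp. MIR181C had 9 AML1-ETO summits within 50 kb, the nearest at 5517 bp.

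**Figure D5:**
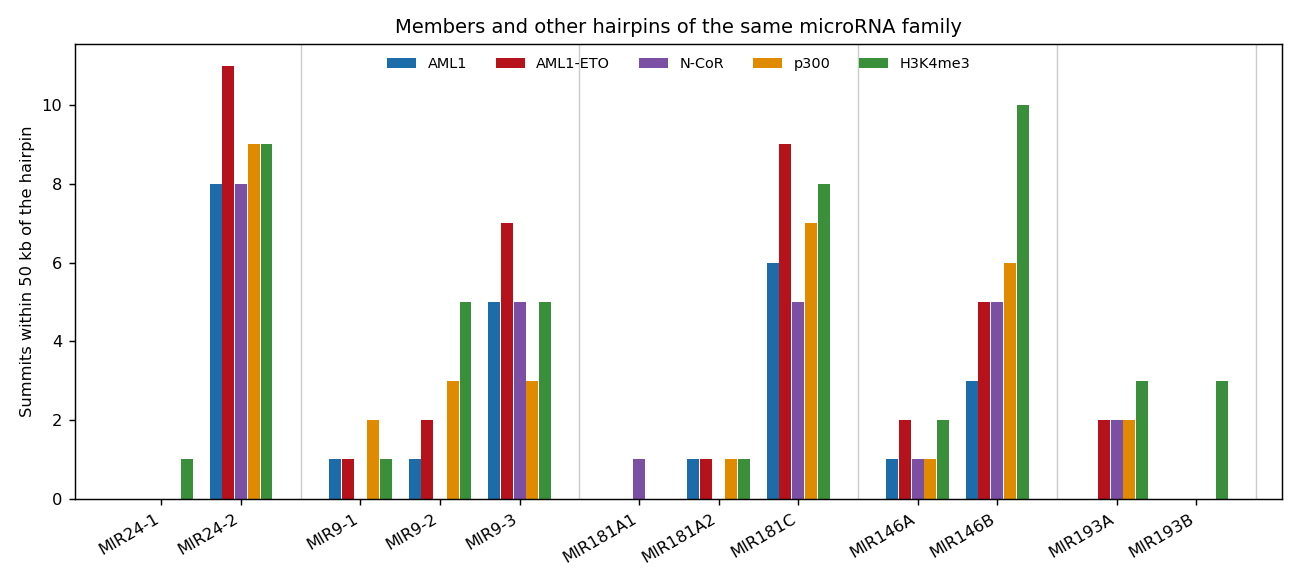
Number of summits of each list within 50 kb of a member and of other hairpins of its family; bars start at 0 and are single counts without error. MIR24-1 has 1 summit, of H3K4me3, where MIR24-2 has 11 of AML1-ETO, and MIR193B has 3 of H3K4me3 and none of the proteins.

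Of 26 other microRNA genes of blood, 22 could be placed here, and 4 of these had an AML1-ETO summit within 5 kb (18.2%, beside 14.8% of all hairpins) and 15 within 50 kb (68.2%, beside 51.9%). These are counts of hairpins and not of separate loci. MIR15A shares a locus with MIR16-1, MIR17 with MIR20A, MIR29A with MIR29B1 and MIR23A with MIR27A. Within 50 kb, 10 had an N-CoR summit (45.5%, beside 36.6%) and 12 an AML1 summit (54.5%, beside 43.2%). A p300 summit lay at that distance from 14 (63.6%, beside 45.4%) and an H3K4me3 summit from 19 (86.4%, beside 57.0%). The most AML1-ETO summits within 50 kb were at MIR142, MIR23A and MIR27A with 11 each, MIR150 with 8 and MIR196B with 5. MIR23A and MIR27A lie beside MIR24-2 and share its summits. MIR223 with 6 and MIR126 with 7 AML1-ETO summits stood between MIR150 and MIR196B.

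The hairpins with summit counts most like those of MIR223, by the sum of absolute differences over the 5 lists within 50 kb, were MIR199A1, MIR4496 and MIR6779, each with a difference of 3. For MIR193A they were MIR1236, MIR1910 and MIR3678, each with a difference of 1, a value that 5 loci shared. The counts of MIR193A were 0 for AML1, 2 each for AML1-ETO, N-CoR and p300, and 3 for H3K4me3.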

How the data were processed

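The authors deposited, for each antibody, a list of positions in BED format (chromosome, start, end and a numbered name), with no score, count or p-value. Per the labels and the study's methods, reads were aligned to GRCh37 (hg19) with Bowtie 0.12.8, replicates were pooled, and peaks were called with MACS2 2.0.10.20131216 at a threshold of 1e-20. CASAVA 1.6 is also named in the submitters' processing notes. Each interval was checked to be 100 bp wide, and its summit was taken 50 bp from its start and counted from 1.

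Hairpins were placed by exact matches of 1562 RefSeq sequences to GRCh37, of which 1484 matched once, and 110 more came from GENCODE release 44 lifted to GRCh37. MIR383 is among the latter. Of 10 members, 9 were placed by sequence. Distances run from the hairpin's nearer edge to the summit. Hairpins within 10 kb of each other are 1 locus. Host genes are annotated transcripts that contain the hairpin on its strand. Likest hairpins leave out those within 200 kb of the member and break ties by symbol.

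The text names all members and, of AML1-ETO summits, those within 5 kb and then those nearest to the hairpin or start or overlapping N-CoR or p300. The members and lists were chosen with earlier results of these data known. With 1 pooled list per antibody, no test between libraries was made. Counts are set beside the same share over all hairpins, summits or host genes. The functions were tested on simulated positions. Tools were samtools 1.23.1, matplotlib 3.10.9, pysam 0.24.0, scipy 1.17.1 and numpy 2.4.6 under Python 3.11.15. Alternatives changed the distances, windows and loci, used the first 50% of each list, or left out MIR126. H3K27me3, input and replicate data were not analysed here.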

Additional observations from a re-analysis of the deposited data

How the results depend on the processing

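Of 84 alternatives to 33 counts or shares, 69 stayed within 1.5 times of the reported value and 15 moved. Some alternatives could hardly move a value, such as merging hairpins into loci for the shares of all hairpins. The tally is therefore not a measure of robustness. The counts near the hairpin depended on the distance. Within 2 kb in place of 5 kb, 0 members had an AML1, AML1-ETO, N-CoR or p300 summit and 1 had an H3K4me3 summit. Within 10 kb, 3 members had AML1-ETO, 5 had N-CoR and 4 had p300. With the first 50% of the H3K4me3 list by peak number, 1 member had H3K4me3 within 5 kb and 4 within 50 kb. The order behind the peak numbers is not stated, so this cut does not stand for a stricter threshold. Taking AML1-ETO summits within 100 kb of the hairpins, 34 in all, 14 overlapped AML1 (41.2%), 17 N-CoR (50.0%) and 11 p300 (32.4%). The p300 share thus fell from 50.0%, and its interval then included the background share, as it did without MIR126. H3K4me3 lay within 500 bp of 2 AML1-ETO summits, in place of 6 within 1000 bp. Without the MIR126 locus, a choice made after seeing the data, 7 AML1-ETO summits overlapped N-CoR and 6 p300. Other distances from host starts, also chosen after seeing the data, kept each count within 1.5 times. No paired analysis was possible because the deposited lists are pooled over replicates. The lists hold no scores or reads, so binding strength, a stricter threshold and differences between replicates could not be examined, and a missing summit says only that no peak passed the authors' threshold.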
